A study of Rattus norvegicus with 12 samples.

Results

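Sarcoplasmic reticulum calcium handling was followed through 10 genes, chosen by symbol from the expression tables of neonatal rat ventricular myocytes (NRVMs): Atp2a2, Pln, Sln, Ryr2, Trdn, Jph2, Casq2, Hrc, Slc8a1 and Camk2d. All 10 were found in both tables, among 18469 genes in all. NRVMs are beating heart muscle cells taken from newborn rats, here of the Sprague-Dawley (SD) strain, and kept in culture. The RNA of 12 cultures was sequenced, 3 in each of 4 groups. Cells of the siNeg group received a control small interfering RNA (siRNA) and no drug, and those of the siNeg.PE group received the same siRNA and then phenylephrine (PE), an alpha-adrenergic agonist that makes these cells grow. By the labels, the siSlc25a26 and siSlc25a26.PE groups received an siRNA against Slc25a26, which encodes the carrier that brings S-adenosylmethionine into mitochondria, without and with PE, and PE was added 12 h after transfection and left for 36 h. The methods of the study instead describe an siRNA against Nap1l5 and longer times for both steps, so the siRNA of each comparison is taken from the labels. The level of the labelled target in each group is given below. Every group therefore carries a transfected siRNA, and no untransfected cells are among the 12 libraries. The methods of the study call the 3 samples of a group independent biological replicates, while the labels are silent on separate isolations of cells.

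Each heartbeat depends on calcium that leaves the sarcoplasmic reticulum and is taken back into it. A small entry of calcium through surface channels opens the ryanodine receptor, the released calcium drives contraction, and the cell relaxes as the SERCA pump returns calcium to the store and the sodium-calcium exchanger carries the rest out. In failing hearts a lower ratio of pump to exchanger is a textbook change.

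Total counts per library ranged from 24770972 to 28709049, and the 10 genes together took 1.17 to 1.5% of them. Levels are given below as CPM, counts scaled to library size by the trimmed mean of M-values (TMM), and levels of different genes are compared in FPKM, which also divides by gene length. The siRNA target did not follow the labels under PE. Slc25a26 was 31.4 ± 2.0 CPM in siNeg and 15.1 ± 0.612 in siSlc25a26 (mean ± SD, n = 3 in each), but 102 ± 14.1 in siNeg.PE and 102 ± 3.69 in siSlc25a26.PE. Its fitted log2 difference between the siRNAs was -1.08 (SE 0.0798) without PE and -0.0062 (SE 0.101, adjusted p = 0.969) under PE, so the last group is called the libraries labelled siSlc25a26.PE. The lowest and highest deposited counts of Slc25a26 in each group were not whole. Part of its reads was therefore divided with a feature that the sources used here do not name, which limits this check of the target. PE raised Nppa, the atrial natriuretic peptide gene and a standard marker of hypertrophy, by a log2 fold change of 4.63 in siNeg and 4.51 in siSlc25a26. Nppb, which encodes the brain natriuretic peptide, rose by 5.37 and 5.32. Both were also higher in siSlc25a26 than in siNeg, by 1.14 (Nppa) and 1.97 (Nppb), and in siSlc25a26.PE than in siNeg.PE, by 1.02 (Nppa, 6139 ± 189 against 2999.8 ± 518 CPM) and 1.91 (Nppb, 2105 ± 68.5 against 555 ± 212 CPM), each with an adjusted p under 0.05.

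Marker genes of other cells moved between the groups. The summed level of 10 fibroblast markers was 21543 to 23677 CPM in siNeg, 11732 to 12186 in siNeg.PE, 12562 to 14096 in siSlc25a26 and 8782 to 9580.4 in siSlc25a26.PE. Its members did not all move together. With PE in siNeg, 5 of the 10 were lower at an adjusted p under 0.05, 2 higher and 3 neither. Of all genes, 24.3% were lower and 25.2% higher. Col1a1 (log2 fold change -0.94) and Col3a1 (-1.26) were among the lower, Pdgfra (0.37) was among the higher, and Lum (0.04) did not pass. Between the PE groups 8 were lower and 1 higher, against 20.1% of all genes in each direction. The sum of 10 cardiomyocyte markers was 23895 to 25172 CPM in siNeg, 27295 to 29216 in siNeg.PE, 19150 to 21719 in siSlc25a26 and 26383 to 28318 in siSlc25a26.PE. Of these 10, 6 were higher and 2 lower with PE in siNeg at an adjusted p under 0.05, and Myh6 (log2 fold change -0.48) was among the lower. All 10 cardiomyocyte markers were detected. The 5 smooth muscle markers summed to 2995 to 3224 CPM in siNeg and to 1419 to 1851 in the other groups. The 6 immune markers summed to at most 129 CPM and the 7 endothelial markers to at most 29.8. The 8 atrial markers summed to 631 to 715 CPM in 3 groups and to 442 to 508 in siSlc25a26.PE. The 4 of 6 skeletal muscle markers in the tables, among them Ckm, which heart muscle also expresses, summed to 1235 to 1371 CPM in siNeg and to 491 to 602 in siSlc25a26.PE. No marker was at 0 in every library. The part of these shifts in the changes below was not tested, and in bulk RNA fewer cells of a type and less RNA per cell cannot be told apart.

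The sequences just upstream of these genes differ widely in base composition. RefSeq windows of 250 bases before the start site (rat assembly GRCr8, 1 start per gene) were found for 9 of the 10 genes. The 5 printed here belong to the genes higher by most in siSlc25a26.PE than in siSlc25a26 (Slc8a1, Jph2, Casq2) and to the pump and its inhibitor (Atp2a2, Pln), which fell there. Capitals mark 2 motifs searched on both strands, the E-box CANNTG, which basic helix-loop-helix factors bind, and the GC box GGGCGG, which Sp factors bind. Each is written 5′ to 3′ on the strand of the gene.
Slc8a1, chr6:19023309-19023558, + strand: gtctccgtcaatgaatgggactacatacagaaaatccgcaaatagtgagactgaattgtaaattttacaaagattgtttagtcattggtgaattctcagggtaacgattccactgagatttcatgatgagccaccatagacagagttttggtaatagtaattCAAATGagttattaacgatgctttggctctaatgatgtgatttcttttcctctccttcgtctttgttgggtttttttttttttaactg
Jph2, chr3:172477922-172478171, - strand: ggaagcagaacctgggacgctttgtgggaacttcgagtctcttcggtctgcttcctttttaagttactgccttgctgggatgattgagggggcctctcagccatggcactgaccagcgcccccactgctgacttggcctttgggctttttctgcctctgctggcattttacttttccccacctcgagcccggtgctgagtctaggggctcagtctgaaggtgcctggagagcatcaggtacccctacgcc
Casq2, chr2:192214306-192214555, + strand: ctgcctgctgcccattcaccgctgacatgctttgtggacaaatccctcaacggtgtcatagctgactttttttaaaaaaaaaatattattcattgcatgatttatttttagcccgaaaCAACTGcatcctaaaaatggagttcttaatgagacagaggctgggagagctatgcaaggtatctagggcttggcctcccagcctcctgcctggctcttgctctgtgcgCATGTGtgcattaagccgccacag
Atp2a2, chr12:39733269-39733518, + strand: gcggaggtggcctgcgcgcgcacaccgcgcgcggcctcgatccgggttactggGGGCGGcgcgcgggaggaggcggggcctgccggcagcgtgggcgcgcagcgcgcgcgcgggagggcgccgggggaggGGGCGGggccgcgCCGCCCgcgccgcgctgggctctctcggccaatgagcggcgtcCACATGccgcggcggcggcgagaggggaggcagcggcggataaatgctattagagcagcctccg
Pln, chr20:33172244-33172493, + strand: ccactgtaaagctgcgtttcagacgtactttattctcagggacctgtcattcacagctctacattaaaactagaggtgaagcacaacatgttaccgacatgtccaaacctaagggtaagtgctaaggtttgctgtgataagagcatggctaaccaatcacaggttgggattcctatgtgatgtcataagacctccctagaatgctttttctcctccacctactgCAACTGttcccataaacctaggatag

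The Slc8a1 window had the lowest GC content, 35.2%, and the Atp2a2 window the highest, 80.0%, against a median of 51.2% over 33469 windows of this length. The other windows held 44.0% GC (Pln and Trdn), 46.4% (Casq2), 57.2% (Jph2), 58.0% (Hrc), 72.0% (Ryr2) and 75.2% (Camk2d). An E-box stood in the windows of Slc8a1, Pln, Casq2, which had 2, Atp2a2 and Ryr2, and 65.5% of all windows hold one. A GC box stood 3 times in each of the Atp2a2, Ryr2 and Camk2d windows, a pair of those in Ryr2 overlapping, against 30.5% of all windows with at least 1. The Jph2, Hrc and Trdn windows held neither. The letters AGATAA of a GATA site, CATTCC of an MCAT element, TATAAA of a TATA box and the CArG box were in none of the 9 windows, and were in 10.3%, 12.1%, 12.9% and 1.5% of all windows. A match is a string of letters and not a bound site, and PE-raised genes were found among windows with and without these motifs.

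Per unit of gene length, the RNAs of the pump and its inhibitor dominated. In siNeg, Atp2a2 was at 1596 ± 26.9 FPKM and Pln at 1514 ± 166, with overlapping libraries. Casq2 followed at 472 ± 22.6 FPKM, below every Pln library. Jph2 (106 ± 1.25 FPKM), Ryr2 (102 ± 13.1), Slc8a1 (93.6 ± 11.7) and Hrc (92.6 ± 5.17) formed a block in which neighbours overlapped. Camk2d (52.2 ± 7.72), Trdn (17.0 ± 5.62) and Sln (5.8 ± 0.765) came last, each separate from the next. The order differed between the groups, also without PE. In siSlc25a26, Ryr2 stood 4th at 113 ± 7.95 FPKM, not separate from Slc8a1 at 103 ± 2.54. In siNeg.PE, Slc8a1 stood 4th at 160.6 ± 16.3 FPKM, not separate from Jph2 at 146 ± 10.7. In the libraries labelled siSlc25a26.PE, Jph2 was 4th at 184 ± 11.2 FPKM beside Slc8a1 at 180.3 ± 8.75, and Hrc (37.9 ± 2.22) lay below Camk2d (47.1 ± 1.32), the reverse of their order in the other 3 groups. Casq2 there, at 751 ± 2.18 FPKM, came closer to Pln at 999.8 ± 81.4, although the libraries of these genes still did not overlap.

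**Figure D1:**
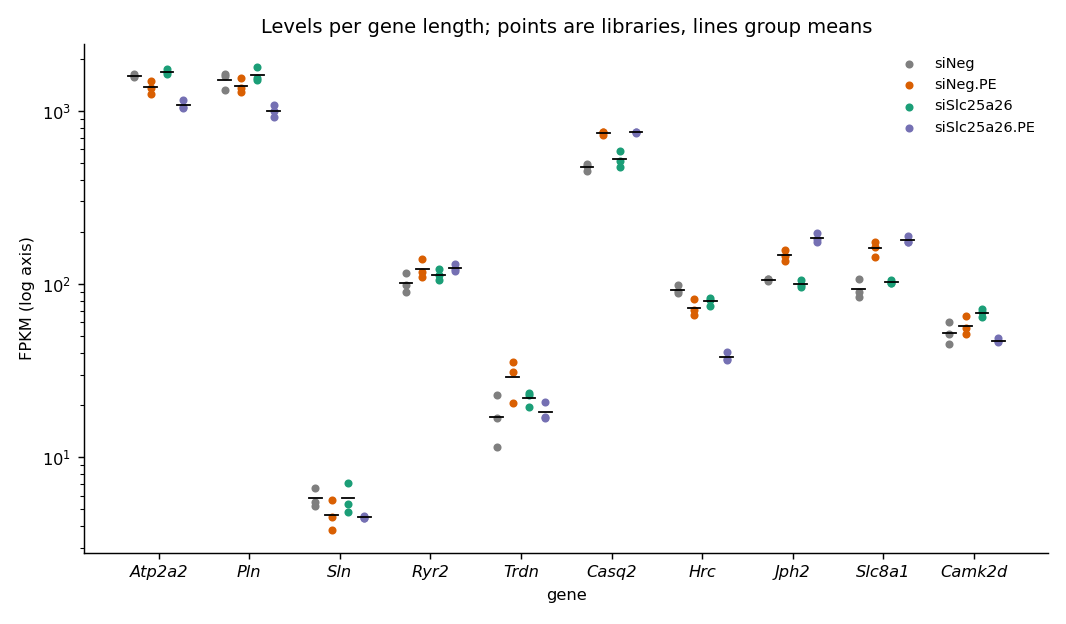
FPKM of each gene on a log axis, with 1 point per library, a short line at the mean of 3, and 1 colour per group. Atp2a2 and Pln lie highest and Sln lowest, under 10 FPKM, and the Hrc points of siSlc25a26.PE stand below all its other points.

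Atp2a2 encodes SERCA, the pump that refills the store. It was at 6536, 6450.2 and 6690.1 CPM in the siNeg libraries and at 5898, 5383 and 6197 in siNeg.PE. It was at 6764, 6953 and 6633 CPM in siSlc25a26 and at 5323, 4757 and 4639.6 in siSlc25a26.PE. Every siNeg.PE library lay below every siNeg library and every siSlc25a26.PE library below those. The decrease with PE in siNeg, a log2 fold change of -0.18 (SE 0.0695), did not pass the test (adjusted p = 0.0576), although it did without siNeg.PE replicate 3 (adjusted p = 0.0246) and with 6 of 9 alternatives, among them DESeq2 (0.0353), limma-voom (0.0447), log2(FPKM + 1) (0.0393) and all 12 libraries in 1 fit (0.043). PE lowered Atp2a2 in siSlc25a26, with a log2 fold change of -0.46 (SE 0.058, adjusted p = 0.000202). The difference was 0.02 (SE 0.0486) between siSlc25a26 and siNeg and -0.26 (SE 0.0832, adjusted p = 0.0353) between the libraries labelled siSlc25a26.PE and siNeg.PE. The last of these did not pass without siNeg.PE replicate 1 (adjusted p = 0.0796), siSlc25a26.PE replicate 2 (0.140) or siSlc25a26.PE replicate 3 (0.118).

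Pln encodes phospholamban, the small membrane protein that holds the pump back until it is phosphorylated. It was at 2810.4, 3436 and 3389 CPM in siNeg, at 2860.2, 3025 and 3332 in siNeg.PE and at 3132, 3211 and 3749 in siSlc25a26. It was at 2560.3, 2303 and 2124 CPM in siSlc25a26.PE, below all 9 other libraries, which overlapped one another. Pln was lower in the libraries labelled siSlc25a26.PE, by a log2 fold change of -0.41 (SE 0.0847, adjusted p = 0.00486) against siNeg.PE and of -0.52 (SE 0.0852, adjusted p = 0.000893) against siSlc25a26. PE in siNeg gave -0.08 (SE 0.0945) and the siRNA without PE 0.04 (SE 0.0956), neither of which passed. Sln encodes sarcolipin, another peptide inhibitor of the pump that in the heart is found mainly in the atria. It had 21 to 43 counts per library, 0.838 to 1.49 CPM over all 12, and the groups overlapped. With SEs of 0.238 to 0.249 on the log2 scale, no difference in Sln was detectable at this depth.

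**Figure D2:**
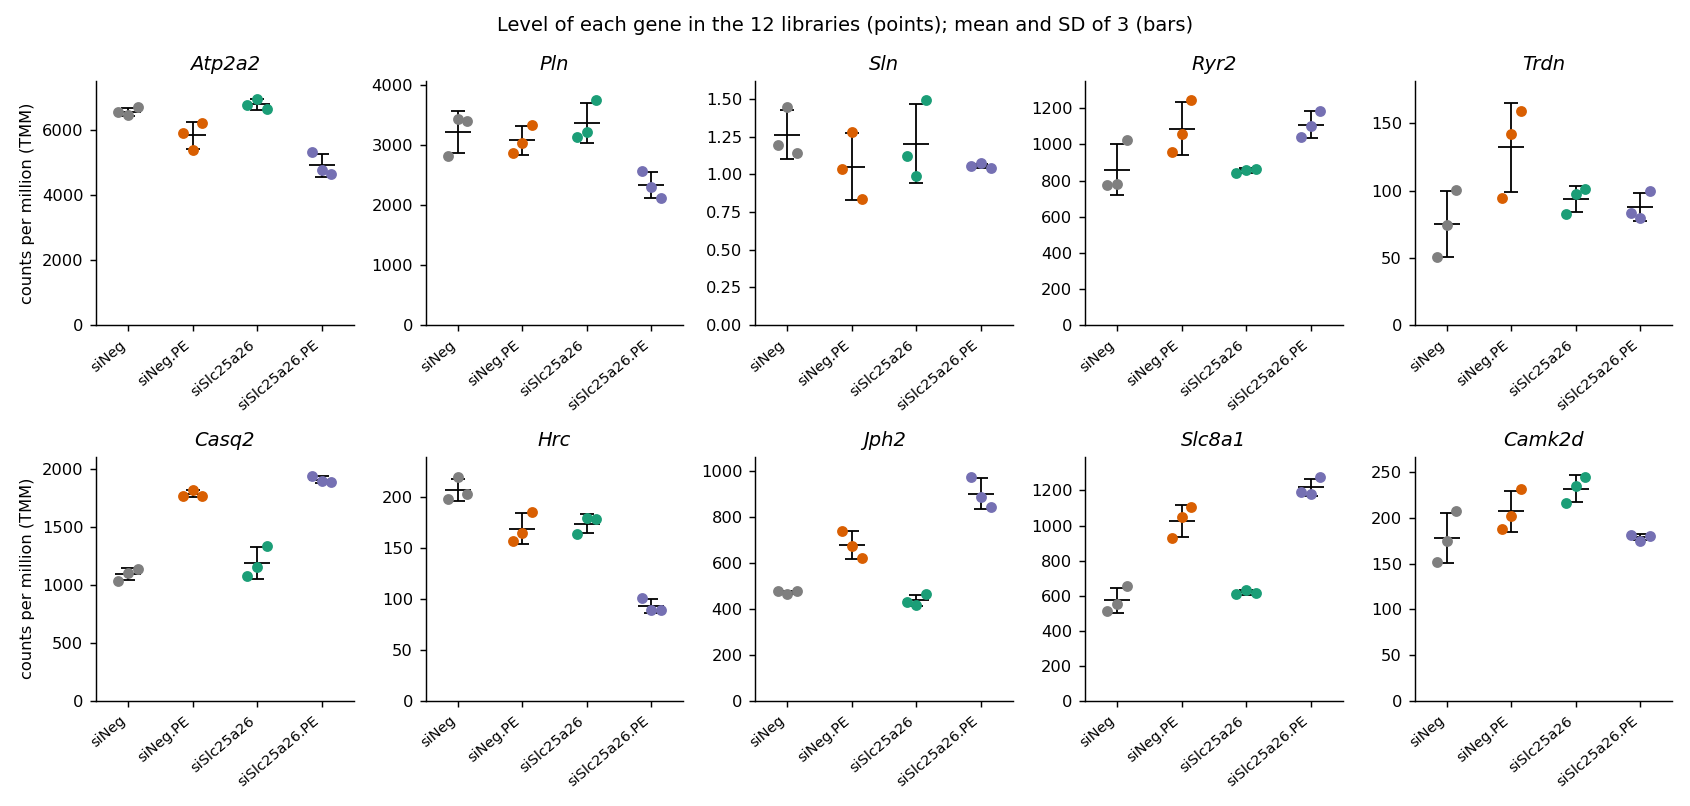
CPM of each gene in the 12 libraries (points, axes from 0), with the mean and SD of 3 per group (bars). Casq2, Jph2 and Slc8a1 are higher in both PE groups, Hrc and Pln are lowest in siSlc25a26.PE, and Sln stays near 1 CPM throughout.

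Ryr2 encodes the ryanodine receptor, the channel through which the store releases calcium. It was at 777, 784 and 1023 CPM in siNeg, at 957, 1057 and 1248 in siNeg.PE, at 842, 861 and 866 in siSlc25a26 and at 1043, 1100.2 and 1187 in siSlc25a26.PE. The siNeg libraries overlapped siNeg.PE through siNeg replicate 3, while siSlc25a26.PE lay wholly above siSlc25a26. PE raised Ryr2 in siSlc25a26 by a log2 fold change of 0.38 (SE 0.058, adjusted p = 0.000557), which fell to 0.13 (adjusted p = 0.118) on the log2(FPKM + 1) scale. In siNeg it gave 0.33 (SE 0.131, adjusted p = 0.0695), which passed without siNeg replicate 3 (adjusted p = 0.0106) or siNeg.PE replicate 1 (0.0258), and with DESeq2 (0.0209) or all 12 libraries in 1 fit (0.0206). It also passed with a block for replicate number (0.33, adjusted p = 0.000117). The siSlc25a26 libraries differed from siNeg by -0.03 (SE 0.095) and the siSlc25a26.PE libraries from siNeg.PE by 0.02 (SE 0.0975), and the first of these was 0.16 on the log2(FPKM + 1) scale.

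Trdn encodes triadin, which ties the ryanodine receptor to calsequestrin inside the store, and its libraries were spread widely in siNeg, around a mean of 75.0 CPM with an SD of 24.7. It was at 50.7, 74.3 and 100.1 CPM in siNeg and at 94.7, 142 and 159 in siNeg.PE. It was at 82.5, 97.2 and 101 CPM in siSlc25a26 and at 83.6, 80.0 and 99.3 in siSlc25a26.PE. The siNeg and siNeg.PE groups overlapped, as did the siNeg.PE and siSlc25a26.PE groups. Trdn rose with PE in siNeg, by a log2 fold change of 0.81 (SE 0.255, adjusted p = 0.0295). This did not pass without siNeg replicate 1 (adjusted p = 0.0667), siNeg replicate 2 (0.0884), siNeg.PE replicate 2 (0.0816) or siNeg.PE replicate 3 (0.0834). It was lower in siSlc25a26.PE than in siNeg.PE by -0.60 (SE 0.166, adjusted p = 0.0193), which was lost without siNeg.PE replicate 2 (adjusted p = 0.072), siNeg.PE replicate 3 (0.0709), siSlc25a26.PE replicate 1 (0.0575) or siSlc25a26.PE replicate 2 (0.0837). The siRNA without PE gave 0.30 (SE 0.199, adjusted p = 0.253), which passed without siNeg replicate 3 (0.54, adjusted p = 0.0114). PE in siSlc25a26 gave -0.09 (SE 0.102).

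Jph2 encodes junctophilin, which anchors the store to the surface membrane at the site of release. It was at 477, 463 and 476 CPM in siNeg and at 740.0, 675 and 619 in siNeg.PE. It was at 431, 416 and 463 CPM in siSlc25a26 and at 973, 888 and 841 in siSlc25a26.PE. The PE groups were separate from their untreated groups and from each other, with siSlc25a26.PE the higher. PE raised Jph2 by a log2 fold change of 0.51 (SE 0.065, adjusted p = 0.00052) in siNeg and of 1.05 (SE 0.0654, adjusted p = 2.67e-06) in siSlc25a26. It was higher in the libraries labelled siSlc25a26.PE than in siNeg.PE by 0.40 (SE 0.0863, adjusted p = 0.00609). Without PE the difference was -0.14 (SE 0.054, adjusted p = 0.0661), and it passed without siSlc25a26 replicate 3 (adjusted p = 0.0266) and with DESeq2 (0.0384). The deposited counts of Jph2 were not whole in 6 of the 12 libraries, so part of its reads was divided with a feature that the sources used here do not name.

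Casq2 encodes the cardiac calsequestrin that stores calcium within the reticulum. It was at 1038, 1106 and 1140.4 CPM in siNeg and at 1771, 1824 and 1772 in siNeg.PE. It was at 1077, 1160.0 and 1340.5 CPM in siSlc25a26 and at 1945, 1901 and 1891 in siSlc25a26.PE. Each PE library lay above each library without PE. PE raised Casq2 by nearly equal amounts in both pairs of groups, 0.70 (SE 0.0544, adjusted p = 5.13e-05) in siNeg and 0.69 (SE 0.0761, adjusted p = 8.73e-05) in siSlc25a26 on the log2 scale. The siSlc25a26 libraries differed from siNeg by 0.10 (SE 0.0814) and the siSlc25a26.PE libraries from siNeg.PE by 0.09 (SE 0.0582, adjusted p = 0.269). All siSlc25a26.PE libraries were above all siNeg.PE libraries, but this did not pass the test.

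Hrc encodes the histidine-rich calcium-binding protein, another buffer of the store, which also binds triadin and the pump. With PE it moved against Casq2, in siNeg and in siSlc25a26. It was at 198, 219 and 202 CPM in siNeg, at 156, 164 and 185 in siNeg.PE, at 163, 179 and 178 in siSlc25a26 and at 100.4, 88.9 and 89.1 in siSlc25a26.PE. Each of the single treatments lay below siNeg and overlapped the other, and the libraries with both lay below all the rest. Hrc fell by a log2 fold change of -0.30 (SE 0.0789, adjusted p = 0.0136) with PE in siNeg and of -0.28 (SE 0.0611, adjusted p = 0.00602) with the siRNA alone. The first of these did not pass without siNeg replicate 2 (adjusted p = 0.0559) or siNeg.PE replicate 2 (0.0581). In the libraries labelled siSlc25a26.PE it was lower by -0.87 (SE 0.0773, adjusted p = 4.69e-05) than in siNeg.PE and by -0.89 (SE 0.0654, adjusted p = 7.4e-06) than in siSlc25a26. Hrc was the only member that passed in all 4 comparisons of groups.

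Slc8a1 encodes the sodium-calcium exchanger of the surface membrane, which removes calcium from the cell. It was at 515, 553 and 653 CPM in siNeg and at 928, 1049 and 1108 in siNeg.PE. It was at 607, 634 and 618 CPM in siSlc25a26 and at 1194, 1182 and 1275 in siSlc25a26.PE. Each PE group was separate from its untreated group, and siSlc25a26.PE lay above siNeg.PE. PE raised Slc8a1 by a log2 fold change of 0.83 (SE 0.101, adjusted p = 0.000416) in siNeg and of 0.98 (SE 0.0513, adjusted p = 9.55e-07) in siSlc25a26. The siRNA gave 0.09 (SE 0.0784) without PE, which passed without siNeg replicate 3 (0.16, adjusted p = 0.0308). The siSlc25a26.PE libraries differed from siNeg.PE by 0.24 (SE 0.0754, adjusted p = 0.034), a call that was lost on leaving out any 1 of the libraries except siNeg.PE replicate 3, with adjusted p from 0.0541 to 0.0967, and on the log2(FPKM + 1) scale (adjusted p = 0.113).

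Camk2d encodes the delta form of the calcium and calmodulin dependent kinase, which phosphorylates phospholamban and the ryanodine receptor. It was at 152, 175 and 207 CPM in siNeg and at 188, 202 and 232 in siNeg.PE. It was at 216, 235 and 245 CPM in siSlc25a26 and at 181, 175 and 180.1 in siSlc25a26.PE. The groups labelled siSlc25a26 and siNeg were thus separate with and without PE, in opposite order. Camk2d was raised by the siRNA without PE, by a log2 fold change of 0.36 (SE 0.1, adjusted p = 0.0182), and was lower in the libraries labelled siSlc25a26.PE than in siNeg.PE, by -0.22 (SE 0.0754, adjusted p = 0.0429). The first did not pass without siSlc25a26 replicate 2 (adjusted p = 0.0544) or replicate 3 (0.0615). The second was kept on leaving out siNeg.PE replicate 1 and was lost on leaving out each of the other 5 libraries in turn (adjusted p from 0.067 to 0.177), with no count filter (0.0502) and with all 12 libraries in 1 fit (0.106). PE lowered Camk2d in siSlc25a26 by -0.37 (SE 0.0577, adjusted p = 0.000715), while in siNeg it gave 0.21 (SE 0.119, adjusted p = 0.176), which passed without siNeg replicate 3 (adjusted p = 0.0337). The change in siNeg also passed with a block for replicate number (0.21, adjusted p = 0.00117).

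The comparison of siNeg.PE with siNeg asks how PE changes these genes in control cells. In it 5 of the 10 genes passed at an adjusted p under 0.05 by edgeR's quasi-likelihood test, 4 higher (Slc8a1, Trdn, Casq2, Jph2) and 1 lower (Hrc). Of 13719 genes tested, 49.5% passed, 25.2% as higher and 24.3% as lower. The libraries did not overlap for 5 of the 10 and for 58.6% of all genes. Calling a gene only at a fold change above 1.5 as well left 3, Slc8a1 (1.78-fold), Trdn (1.75-fold) and Casq2 (1.62-fold), all higher, where 20.7% of all genes were called, 12.4% as higher and 8.24% as lower. The median log2 fold change of the 10 was 0.27, and that of all genes was 0.000158. The same comparison of PE in siSlc25a26 passed 8 of the 10, 4 higher (Jph2, Slc8a1, Casq2, Ryr2) and 4 lower (Hrc, Pln, Atp2a2, Camk2d), against 52.4% of all genes, 26.4% higher and 26.0% lower. The libraries did not overlap for these same 8 genes and for 61.0% of all. Jph2 (2.08-fold), Slc8a1 (1.98-fold), Casq2 (1.61-fold) and, in the lower direction, Hrc (1.86-fold) were called, where 20.5% of all genes were, 10.1% as higher and 10.4% as lower. On the log2(FPKM + 1) scale 5 were called, because Atp2a2 (-0.63) and Pln (-0.69) came past the fold threshold and Casq2 (0.52) came short of it. The median of the 10 was -0.13.

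Comparing siSlc25a26 with siNeg asks what the siRNA does on its own. Without PE, only Camk2d (higher) and Hrc (lower) passed, 2 of 10 against 45.0% of all 13829 genes tested, 23.3% higher and 21.7% lower. Those 2 were also the genes whose libraries did not overlap, against 56.9% of all genes. None was called by edgeR, DESeq2 or limma-voom, where edgeR called 16.1% of all genes, 8.92% as higher and 7.20% as lower, and 3 of the 10 had an unadjusted p under 0.05. The median log2 difference of the 10 was 0.03. Between the libraries labelled siSlc25a26.PE and siNeg.PE, 7 of the 10 passed, 2 higher (Jph2 and Slc8a1) and 5 lower (Hrc, Trdn, Pln, Atp2a2 and Camk2d), against 40.1% of all genes, 20.1% in each direction. The libraries did not overlap for 7 of the 10 and for 52.0% of all genes. Hrc (1.83-fold lower) and Trdn (1.51-fold lower) were called, where 15.8% of all genes were, 7.71% as higher and 8.10% as lower, and only 1 of them, Hrc, with limma-voom. The median of the 10 was -0.11. The comparisons share libraries in pairs, so their values are given side by side and are not independent.

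**Figure D3:**
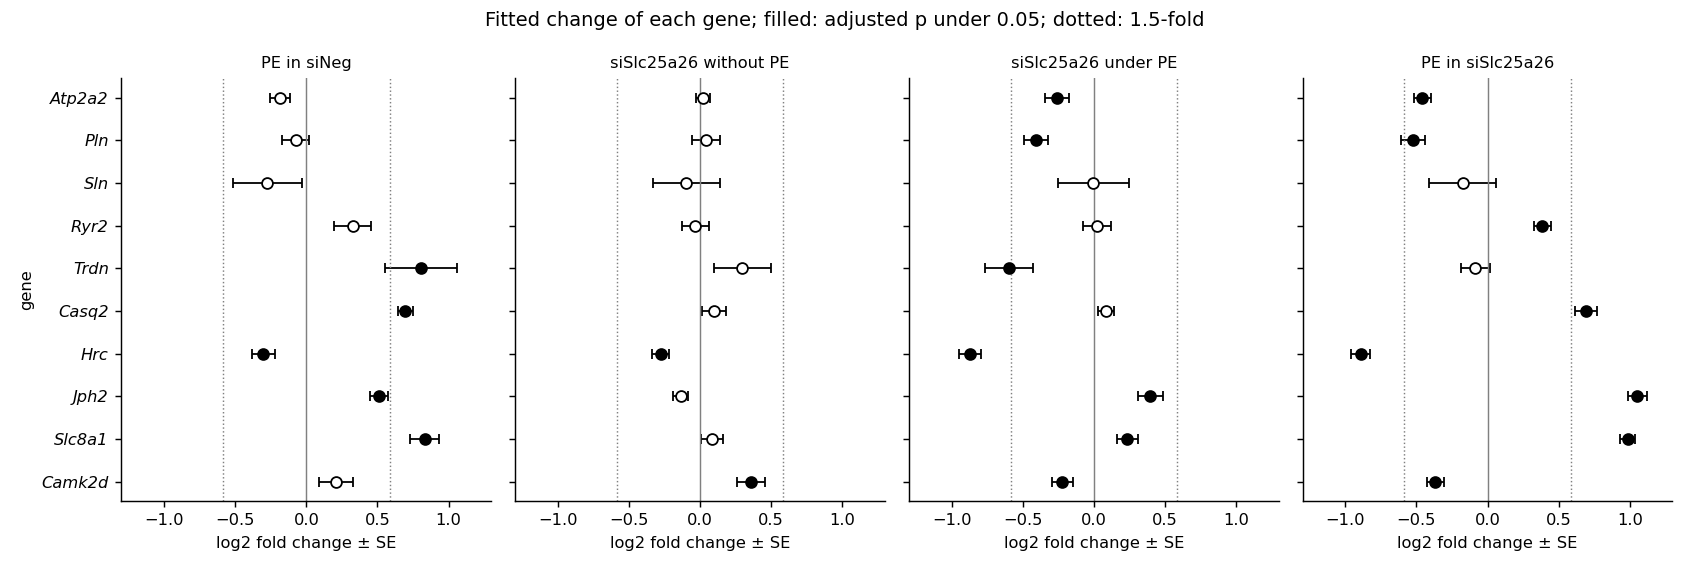
Fitted log2 fold change ± SE of each gene in 4 comparisons of groups, filled where the adjusted p is under 0.05 and with dotted lines at 1.5-fold. Casq2, Jph2 and Slc8a1 lie right of 0 in both PE panels, and Hrc lies left of 0 in all 4 panels.

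Whether the effect of PE differed between the groups labelled siNeg and siSlc25a26 was tested by an interaction term over all 12 libraries. It differed for 4 of the 10 genes, 1 higher and 3 lower, against 11.2% of 14097 genes tested, 5.48% higher and 5.73% lower. Of these 2 were called, both lower, against 5.50% of all genes, 2.16% as higher and 3.34% as lower. The PE effect on Hrc was lower in the groups labelled siSlc25a26, by a difference of -0.61 on the log2 scale (SE 0.104, adjusted p = 0.0031). The PE effect on Camk2d was lower there by -0.60 (SE 0.143, adjusted p = 0.0193), with values of 0.21 in siNeg and -0.37 in siSlc25a26. That on Jph2 was higher by 0.52 (SE 0.101, adjusted p = 0.00622), and that on Pln lower by -0.47 (SE 0.139, adjusted p = 0.049). Camk2d did not pass without siSlc25a26.PE replicate 2 (adjusted p = 0.0536), and Pln did not pass on leaving out 9 of the 12 libraries in turn (adjusted p from 0.0535 to 0.124), with DESeq2's size factors (0.0592) or with no count filter (0.0509). The difference for Trdn, -0.91 (SE 0.307), was the largest but did not pass (adjusted p = 0.0772), and did so without siNeg replicate 3 (-1.18, adjusted p = 0.0166) or siNeg.PE replicate 1 (-1.10, adjusted p = 0.0247), and on the log2(FPKM + 1) scale (0.0435). Atp2a2 gave -0.30 (SE 0.0924, adjusted p = 0.0579), and passed without siNeg.PE replicate 2 (adjusted p = 0.0349) or siSlc25a26.PE replicate 1 (0.0199) and with 5 of 8 alternatives, among them DESeq2 (0.0331), limma-voom (0.0463) and log2(FPKM + 1) (0.0155). For Casq2 (-0.03, SE 0.099), Ryr2 (0.04, SE 0.155), Slc8a1 (0.13, SE 0.118) and Sln (0.07, SE 0.326) a difference was not detected. The 2 calls became 0 with DESeq2, where both genes passed the test but lay under the fold threshold (Hrc -0.58, Camk2d -0.57). The count was also 0 without siNeg replicate 1, siNeg.PE replicate 3, siSlc25a26.PE replicate 2, siSlc25a26 replicate 2 or siSlc25a26 replicate 3, 1 without siSlc25a26.PE replicate 3, 3 without siNeg replicate 3 and 4 without siNeg.PE replicate 1.

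**Figure D4:**
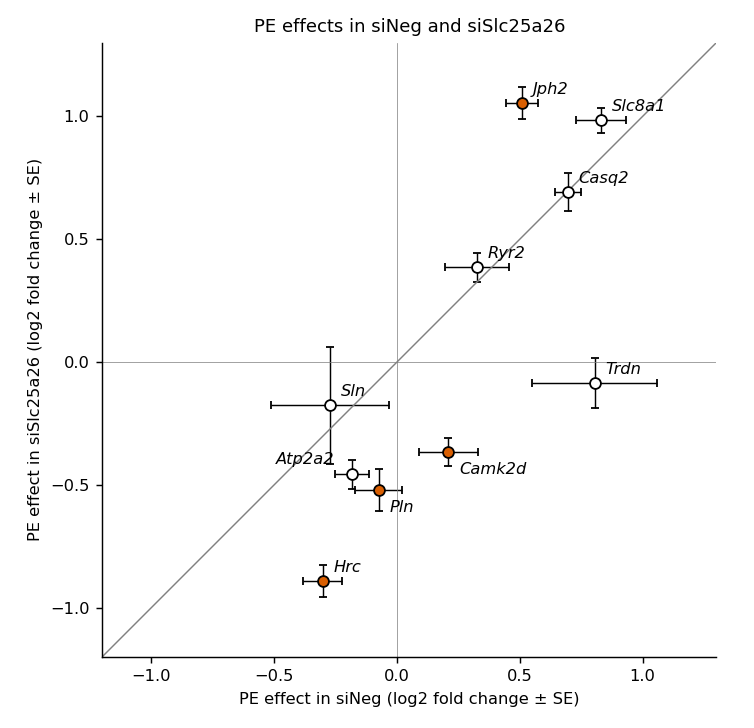
Log2 fold change ± SE with PE in siNeg (horizontal axis) against that in siSlc25a26 (vertical axis), where the diagonal marks equal effects and filled points are the 4 genes whose effects differed at an adjusted p under 0.05. Casq2, Ryr2 and Slc8a1 lie near the diagonal, Jph2 above it, and Hrc, Camk2d, Pln and Trdn below it.

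Ratios within a library need no scaling between libraries. They are ratios of RNA, and these libraries hold no measure of protein. The FPKM of Slc8a1 as a percent of that of Atp2a2, the RNA of the exchanger set against that of the pump, was 5.28, 5.75 and 6.55% in siNeg and 10.5, 13 and 11.8% in siNeg.PE. It was 6.0, 6.10 and 6.25% in siSlc25a26 and 15.1, 16.6 and 18.3% in siSlc25a26.PE. The means rose from 5.86 ± 0.644% to 11.8 ± 1.25% with PE in siNeg, a log2 difference of 1.01 (SE 0.127), and from 6.12 ± 0.127% to 16.7 ± 1.63% in siSlc25a26, a difference of 1.44 (SE 0.0833). The PE groups differed by 0.50 (SE 0.12). None of these 3 pairs of groups overlapped, and each gave p = 0.1 by an exact two-sided permutation test (n = 3 in each), the smallest p that 3 against 3 allows, or 0.3 adjusted over 12 ratio tests. The groups without PE differed by 0.07 (SE 0.0923, exact permutation p = 0.6).

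The RNAs of Pln and Atp2a2 kept closer to 1 ratio. Pln was 94.9 ± 10.3% of Atp2a2 in siNeg, 102 ± 7.64% in siNeg.PE, 96.4 ± 11.5% in siSlc25a26 and 92.0 ± 2.80% in siSlc25a26.PE. Its log2 differences were 0.11 (SE 0.112) for PE in siNeg, 0.02 (SE 0.134) for siSlc25a26 against siNeg, -0.15 (SE 0.0681) for siSlc25a26.PE against siNeg.PE and -0.06 (SE 0.0998) for PE in siSlc25a26, with exact permutation p from 0.1 to 1.0 in groups of 3. The p of 0.1, the smallest possible, was that of siSlc25a26.PE against siNeg.PE (0.3 adjusted over 12 ratio tests). Those libraries did not overlap, but only narrowly, with 93.86% the highest in siSlc25a26.PE and 93.90% the lowest in siNeg.PE. The ratio of Sln to Atp2a2 was 0.344 to 0.414% in the group means, with log2 differences from -0.10 to 0.30 and SEs of 0.201 to 0.262.

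**Figure D5:**
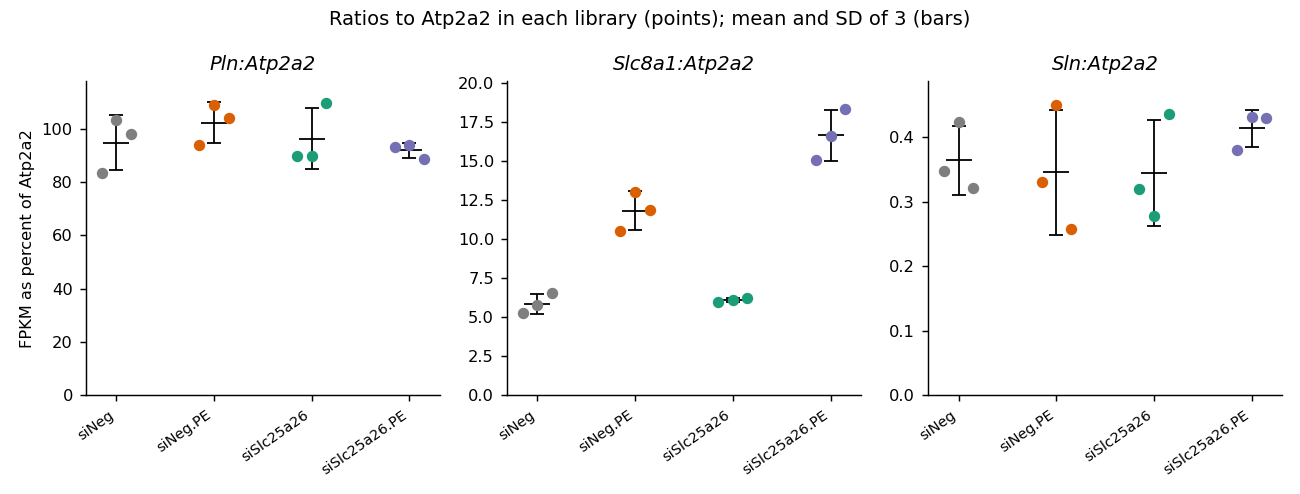
FPKM of Pln, Slc8a1 and Sln as a percent of that of Atp2a2 in each library (points, axes from 0), with the mean and SD of 3 per group (bars). The Slc8a1 ratio is between 10.5 and 18.3% in the PE libraries and between 5.28 and 6.55% in the others, while the Pln ratio overlaps between most groups.

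A wider list of 59 genes of calcium release, storage, entry, extrusion, regulation and mitochondrial uptake was read beside the 10. Of these 58 were in the tables and 52 or 53 were tested, depending on the comparison. With PE in siNeg 20 rose and 8 fell, against 25.2 and 24.3% of all genes, and 7 and 3 were called, 10 of 52 against 20.7% of all genes. The largest rise was that of Casq1, the skeletal muscle form of calsequestrin, from 31.8 ± 3.96 to 144 ± 10.2 CPM (log2 fold change 2.17, SE 0.0936). The lowest and highest deposited counts of Casq1 in each group were not whole, so part of its reads too was divided with an unnamed feature. Ryr3, a minor ryanodine receptor (1.25, SE 0.148), and Cacnb2 (1.18, SE 0.076) and Cacna2d1 (1.03, SE 0.267), accessory subunits of surface calcium channels, also rose. Slc8b1, the mitochondrial sodium-calcium exchanger (-0.76, SE 0.123), Stim1, the calcium sensor of the store (-0.72, SE 0.0614), and S100a1, which binds the pump and the ryanodine receptor (-0.68, SE 0.0558), fell. The lowest and highest deposited counts of Slc8b1 in siNeg, siNeg.PE and siSlc25a26 were not whole either, so the same limit holds for it.

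With PE in siSlc25a26, 22 of 53 tested rose and 9 fell, against 26.4 and 26.0% of all genes, and 12 and 3 were called, against 10.1 and 10.4%. Casq1 went from 43.2 ± 4.30 to 292 ± 4.51 CPM (2.77, SE 0.0733), which is over the 144 CPM of siNeg.PE. Ryr3 (1.84, SE 0.221) and Cacnb2 (0.97, SE 0.0497) rose, as did Slc8a2, another sodium-calcium exchanger gene that reached only 1.11 ± 0.178 CPM (2.21, SE 0.395). S100a1 (-0.91, SE 0.115), Stim1 (-0.71, SE 0.0771) and Atp2b2, a surface calcium pump at under 5 CPM (-1.08, SE 0.272), fell. The effect of PE differed between siSlc25a26 and siNeg for 4 of 53 genes of the list, against 11.2% of all genes, none of them called by edgeR, while 15 had an unadjusted p under 0.05 and DESeq2 called 1. The 4 are named here after their values were seen: Casq1 (0.58, SE 0.125), Bin1, which shapes the surface invaginations (0.45, SE 0.121), Srl, a lumenal calcium-binding protein (0.37, SE 0.0697), and Fkbp1a, a partner of the ryanodine receptor (0.36, SE 0.0976), all with the higher effect in the groups labelled siSlc25a26.

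In siSlc25a26 against siNeg, 11 of 52 were higher and 11 lower, against 23.3 and 21.7% of all genes, with 3 and 3 called, against 8.92 and 7.20%. Prkar2a, a regulatory subunit of protein kinase A (0.97, SE 0.0763), Tmem38b, a counter-ion channel of the store (0.80, SE 0.083), and Slc8b1 (0.67, SE 0.11) were higher. Atp2b4, a surface calcium pump (-0.96, SE 0.0728), Camk2b, another form of the kinase (-0.80, SE 0.157), and Itpr3, an inositol trisphosphate receptor (-0.64, SE 0.148), were lower. In the libraries labelled siSlc25a26.PE against siNeg.PE, 13 of 53 were higher and 15 lower, against 20.1% of all genes in each direction, with 6 and 3 called, against 7.71 and 8.10%. The called genes with the largest differences were Slc8a2 (1.33, SE 0.294), Casq1 (1.01, SE 0.0678), Slc8b1 (0.85, SE 0.0891) and Prkar2a (0.80, SE 0.074), which were higher, and Atp2b2 (-1.12, SE 0.251), Cacna1d (-0.87, SE 0.306) and Atp2b4 (-0.59, SE 0.111), which were lower. Cacna1d was at only 1.4 ± 0.28 CPM in siNeg.PE and 0.767 ± 0.264 in siSlc25a26.PE. Its adjusted p by the quasi-likelihood test, 0.0496, lay just under the threshold. The list's median log2 difference was -0.03, and that of all genes was -0.0028.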

How the data were processed

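The authors deposited 1 table of estimated counts of reads per gene and 1 of FPKM, each with 12 library columns mapped to groups by their labels. Per the submitters' processing notes, HISAT, Bowtie2 and the build Rnor_6.0 were used; the counting program, annotation, strandedness and their versions are not given in the sources used here. Between 20.8 and 21.9% of count values per library were not whole. The design had been written for whole counts, so the estimated ones were rounded first. Replicate libraries differed by at least 5.52 in chi-square per gene, so none was counted as a copy of another.

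Counts were tested with edgeR 4.0.16 in R 4.3.3 (TMM, filterByExpr, quasi-likelihood F-test, Benjamini-Hochberg over all genes tested). Each fit used the libraries of the groups compared, and the difference between PE effects used all 12. A gene rose or fell at an adjusted p under 0.05 and was called at a fold change above 1.5 as well. Standard errors came from the F statistic. On simulated counts, 190 of 200 genes changed 2-fold were recovered among 13684, with 7 unchanged genes called. Ratios were tested by exact permutation with scipy 1.17.1. For low counts such as those of Sln too, the SEs of fitted changes rest on the fitted model of the counts. The SEs of ratios cover the spread between libraries.

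Alternatives were DESeq2 1.42.0, limma-voom (limma 3.58.1), DESeq2's size factors, log2(FPKM + 1) and log2(FPKM + 0.1), no or a stricter count filter, a replicate block, all libraries in 1 fit, no fold threshold and each library left out. Named were the 10 genes, Slc25a26, Nppa and Nppb, and, from the list of 59, up to 4 called genes in each direction with the largest change, with groups that did not overlap and at least 10 counts in each library of the higher group. The 10 genes and all lists were chosen with earlier results of these data known. Promoter windows came from RefSeq (GRCr8).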

Additional observations from a re-analysis of the deposited data

Results flagged for a closer look

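The PE effect differed between the groups labelled siNeg and siSlc25a26 for 4 of the 10 genes by the interaction term of edgeR's quasi-likelihood test over 12 libraries. Of all 14097 genes tested, 11.2% passed by the same term, 5.48% as higher and 5.73% as lower. In units of the log2 fold change in siSlc25a26 less that in siNeg, the difference was -0.61 for Hrc, -0.60 for Camk2d, 0.52 for Jph2 and -0.47 for Pln. Jph2 and Hrc passed under every alternative that was run, library omissions included. Camk2d passed except without siSlc25a26.PE replicate 2 (adjusted p = 0.0536), and Pln had an adjusted p of 0.049 that rose to as much as 0.124 when 1 library was left out and was 0.0592 with DESeq2's size factors and 0.0509 with no count filter. In the libraries labelled siSlc25a26.PE the target Slc25a26 was at 102 ± 3.69 CPM, against 102 ± 14.1 in siNeg.PE, and the summed fibroblast markers were at 8782 to 9580.4 CPM, against 11732 to 12186. Their part in these differences was not tested.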

How the results depend on the processing

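Without the fold threshold, the genes called of the 10 became 5 for PE in siNeg, 2 for siSlc25a26 against siNeg, 7 for siSlc25a26.PE against siNeg.PE, 8 for PE in siSlc25a26 and 4 for the difference between PE effects, and those of the list of 59 became 28, 22, 28, 31 and 4. In the same order, 49.5, 45.0, 40.1, 52.4 and 11.2% of all genes tested passed at an adjusted p under 0.05. For siSlc25a26.PE against siNeg.PE, 1 of the 10 was called with limma-voom and with the replicate block, and 1 to 2 with 1 library left out, in place of 2. There 3 of the list were called on the log2(FPKM + 1) scale and 5 on the log2(FPKM + 0.1) scale, in place of 9. For PE in siSlc25a26 these scales called 8 and 9 of the list in place of 15. For the difference between PE effects, none of the 10 was called with DESeq2 or its size factors, and 0 to 4 with 1 library left out. Of the list, 1 was called there with DESeq2, its size factors, no count filter or the replicate block, and 0 to 2 with 1 library left out.

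On the FPKM scales the median of all genes shifted to -0.14 and -0.17 for PE in siSlc25a26 and, for the interaction, to -0.12 and -0.15, and 27.4 and 26.5% of the calls in the first and 23.2 and 21.2% in the second were in the higher direction, in place of 49.2 and 39.3%. Ryr2 changed sign on these scales for siSlc25a26 against siNeg (0.16 and 0.16) and for the difference (-0.14 and -0.14), the latter close to the shift of all genes. Sln changed sign for the difference there (-0.014 and -0.013), and for siSlc25a26.PE against siNeg.PE with DESeq2 (0.000663) or its size factors (0.000203), with limma-voom (0.016), the replicate block (0.0066) and all libraries in 1 fit (0.0048). None of these passed a test. The cause was not tested. With 1 library left out, changes of sign were met, on the log2 scale, for siSlc25a26 against siNeg by Pln (-0.049 to 0.091), Sln (-0.28 to 0.029), Ryr2 (-0.10 to 0.083), the ratio Pln:Atp2a2 (-0.074 to 0.086), the ratio Sln:Atp2a2 (-0.28 to 0.044), the ratio Slc8a1:Atp2a2 (-0.0046 to 0.15). For siSlc25a26.PE against siNeg.PE they were met by Ryr2 (-0.057 to 0.11), Sln (-0.16 to 0.16). For PE in siSlc25a26 they were met by Sln (-0.30 to 0.0078), the ratio Pln:Atp2a2 (-0.11 to 0.035), for the difference of PE effects by Casq2 (-0.089 to 0.074), Sln (-0.052 to 0.27), Ryr2 (-0.11 to 0.16), and for PE in siNeg by the ratio Sln:Atp2a2 (-0.31 to 0.0897).

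Whether shared replicate numbers mark paired libraries is not given by the labels, and the main fits had no replicate block. The correlation of same-numbered deviations ranged from -0.094 to 0.219, which does not settle it. Numbers 1 and 3 correlated best with their own number for PE in siNeg (0.146 and 0.219) and for siSlc25a26.PE against siNeg.PE (0.212 and 0.171). Number 2 did so in neither, and no number did for PE in siSlc25a26. With the block, Ryr2 (0.33, adjusted p = 0.000117), Atp2a2 (-0.19, 0.00525) and Camk2d (0.21, 0.00117) passed for PE in siNeg. So did Atp2a2 (-0.30, 0.0395) and Trdn (-0.92, 0.00719) for the difference. All other alternatives left counts within 1.5 times. No alternative was added after the data were seen. Sln, at 21 to 43 counts, and Trdn, with its spread between libraries, limit what can be said of them.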

Other observations

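By the root mean square difference of log2 CPM, centred on each gene's own mean, over 12 libraries and 9351 genes at a mean of at least 10 CPM, the nearest gene to Ryr2 was Fer (0.0583), to Slc8a1 was Wnk1 (0.0598), to Jph2 was Pgm1 (0.0598), to Casq2 was Idh3a, a subunit of mitochondrial isocitrate dehydrogenase (0.0743), and to Camk2d was Hdac9 (0.0746). Pln (Phyh, 0.0904), Hrc (Sema6d, 0.107), Sln (Psmg4, 0.126) and Trdn (Itgb8, 0.149) had no gene as near. The next nearest were Ap1g1 for Ryr2 (0.0722), Rtn4 for Slc8a1 (0.0739), Mcam for Jph2 (0.0616) and Fam49b for Casq2 (0.0818). Each gene's own spread on this measure was 0.194 for Atp2a2 and 0.474 for Slc8a1, the lowest and highest of the 10. These are descriptions over libraries that share groups and depth.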
